A study of Macaca mulatta with 35 samples.

Results

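Oocyte-restricted transcripts were taken as the 200 transcripts of the rhesus monkey whose level in oocytes lay farthest above their level in both cumulus and granulosa cells. They were chosen from 49537 transcripts by measured values. For each transcript, log2(TPM + 1) was averaged over the 12 oocyte, the 11 cumulus and the 12 granulosa libraries, where TPM is the deposited level of a transcript, scaled by its length and by the library total. A transcript was kept if it had a mean of at least 50 estimated counts in oocytes, if its cumulus and granulosa means differed by less than 1, and if its oocyte mean exceeded the higher of them by more than 1. Of the 19038 transcripts with enough counts, 7595 met these limits, and the 200 with the largest gap between the oocyte mean and the higher somatic mean were taken. The gap is therefore a log2 difference, and all differences between oocytes and somatic cells below describe the choice and carry no test.

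The libraries came from antral follicles of adult female rhesus monkeys, whose ovaries were recovered at necropsy. Follicles were graded as small, medium or large, and each library held cumulus cells, granulosa cells or an oocyte sample from one follicle size. Each group had 4 libraries, except that cumulus cells of small follicles had 3, and the labels name no treatment. The labels do not say which libraries share an animal or a follicle, so the spread between libraries may be partly technical.

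In an antral follicle the oocyte sits inside a layer of cumulus cells, which reach it through fine projections across the zona pellucida, while granulosa cells line the follicle wall and do not touch the oocyte. The growing oocyte builds a store of RNA and proteins and becomes largely silent in transcription as it completes growth, so that meiosis, fertilization and the first cleavages run on maternal RNA. Classical oocyte-restricted genes encode zona pellucida proteins, secreted growth factors of the oocyte, germ-cell transcription factors and proteins that the early embryo needs. None of the 200 transcript IDs could be joined to a gene in the sources used here, so no member is assigned a gene, a protein or a sequence, and the label was checked by levels alone. Members are called by their rank in the gap, 1 being the largest, and by their length.

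The libraries held between 20780476 estimated counts (oocyte large 4) and 52350387 (oocyte medium 2). Members had a mean of 207.5 to 73961 counts in oocytes, with a median of 5005. Single libraries that stand apart are given with the results below: 6 somatic libraries with high member levels, oocyte small 2 and medium 2 with low ones, and oocyte large 2 with an altered order of members. The oocyte libraries among them all carry the number 2, and the labels do not say what the number means. RNA was amplified before sequencing, so counts are not independent molecules.

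The gap ranged from 4.97 to 8.56 on the log2 scale, with a median of 5.58. In 200 of the 200 members the lowest oocyte library exceeded the highest somatic one. The same held for 21.4% of the 19038 transcripts with enough oocyte counts, and nothing is read from the members' count because the rule used this contrast. The mean log2(TPM + 1) of the members was between 5.30 and 11.99 in oocytes, with a median of 6.73. The medians were 0.95 in cumulus cells and 0.56 in granulosa cells.

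Member 1 (ENSMMUT00000092428.1, 366 bases) had 399 to 1625 TPM over the oocyte libraries, with a median of 1118. Its cumulus values ran from 0 to 28.8 TPM with a median of 0.212, and its granulosa values from 0 to 17.9 TPM with a median of 0. Member 2 (ENSMMUT00000080470.1, 480 bases) had 559 to 2920 TPM in oocytes with a median of 1780, against 0 to 65.7 TPM in cumulus cells and 0 to 45.5 TPM in granulosa cells. For both transcripts the lowest oocyte library stood several-fold above the highest somatic library, yet the highest somatic library was far above the somatic median. The next members had the same form. Member 3 (555 bases) had a median of 1611 TPM in oocytes and of 0.397 and 0.272 TPM in cumulus and granulosa cells, with a highest somatic value of 86.6 TPM. Member 4 (594 bases) had a median of 1897 TPM in oocytes and a highest somatic value of 155 TPM, in cumulus cells. Member 5 (777 bases) had a median of 1521 TPM in oocytes and a highest somatic value of 63.4 TPM. The 5 members of the largest gap were thus short transcripts, all below the members' median length.

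**Figure D1:**
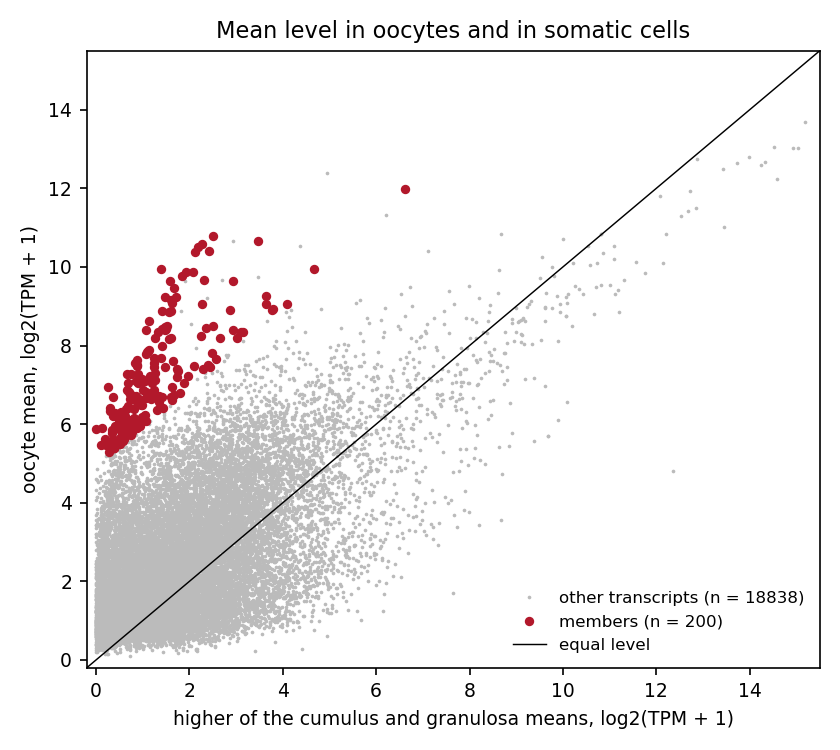
Each point is a transcript with at least 50 mean estimated counts in oocytes; the horizontal axis is the higher of its mean log2(TPM + 1) in cumulus and granulosa cells and the vertical axis its mean in oocytes. The 200 members, in colour, form the upper left edge of the 19038 transcripts, with oocyte means from 5.30 to 11.99.

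The members covered a wide range of oocyte levels. Mean oocyte TPM ran from 42.5 to 4403 with a median of 112, and 10 members were above 1000 TPM, 105 between 100 and 1000 and 85 below 100. The summed level was concentrated: the most abundant member held 8.23% of the summed member TPM, the top 10 held 32.9% and the top 50 held 70.4%. The order by level differed from the order by gap. The most abundant, member 125 (688 bases), had 1629 to 8695 TPM in oocytes, with a mean of 4403 ± 1773 TPM (SD, n = 12). It was followed by members 4, 22, 3 and 2. Member 22 (1332 bases) had 750 to 2515 TPM in oocytes with a median of 1864.

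At the lower edge of the rule there was no break. The last 2 members inside, of 3435 and 1446 bases, had gaps of 4.98 and 4.97, and the first 2 transcripts outside, of 1964 and 1845 bases, both had 4.97. A further 13 transcripts had a gap at least as large as that of member 200 but failed the limit on the difference between cumulus and granulosa means, and all 13 were higher in cumulus cells. The largest such difference among members was 0.97 and the smallest among those that failed was 1.01. The count minimum removed 0 transcripts with a gap this large.

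Members were shorter than the transcripts they were drawn from. Their median length was 1831 bases (quartiles 1065 and 3133), against 2385 bases over the 7595 transcripts that met the limits of the rule and 2752 bases over the 19038 with enough oocyte counts. Of the members 22.5% were under 1000 bases, against 7.28% of the 7595 and 5.66% of the 19038. Under 500 bases were 5% of the members, against 0.961% and 1.20%. The difference depended on the scale of the rule. When CPM, counts scaled to the library total but not by length, replaced TPM in the rule, 140 of the 200 members were chosen again, and the median length of the list was 2802 bases. Across the members the gap had a Spearman correlation of -0.15 with length and of 0.70 with the oocyte mean, the latter being part of the gap itself.

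The length extremes show how far the members differ from each other. Members 50 (252 bases) and 89 (339 bases) were the shortest, with 44.2 to 411 TPM and 28.9 to 144 TPM over the oocyte libraries. Members 142 (22881 bases) and 153 (9287 bases) were the longest, with 13.3 to 125 TPM and 21.7 to 111 TPM. All 4 were thus detected in every oocyte library, at levels that overlapped.

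The members also differed in how their counts were assigned. The quantification divides a read that is compatible with several transcripts among them, so a transcript whose estimated counts are whole numbers in every library (within 1e-06) shows no sign of divided reads. This held for 61 members (30.5%), against 13.5% of the 7595 transcripts that met the limits of the rule and 9.79% of the 19038 with enough counts. Members 1, 3, 22 and 142 were among the 61. The 61 members had a median length of 1533 bases, a median gap of 5.80 and a median oocyte level of 145 TPM, and the other 139 had 1973 bases, 5.52 and 110 TPM. For the other 139, the value of 1 transcript depends in part on how reads were divided, and a member can share reads with another transcript of its gene.

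In oocytes the members held 5.35% ± 1.36 of all TPM (SD, n = 12), from 2.20% to 6.66%. By follicle size the share was 5.25% ± 1.50 in small, 5.13% ± 2.0 in medium and 5.67% ± 0.543 in large follicles (SD, n = 4 each). The size groups overlapped. The 4 values were 5.61, 3.09, 5.76 and 6.53% in small follicles, 6.08, 2.20, 6.66 and 5.59% in medium and 5.53, 6.41, 5.11 and 5.64% in large follicles. Oocyte small 2 and medium 2 were the lowest of the 12 and widened the spread of their groups. In these bulk samples fewer cells of a type and less RNA per cell cannot be told apart.

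The cumulus libraries gave members 0.0829% ± 0.0866 of TPM (SD, n = 11). The granulosa libraries gave them 0.0430% ± 0.0497 (SD, n = 12), so that for both cell types the SD exceeded the mean. The values fell into separate sets. A set of 6 somatic libraries, those in which members took over 0.1% of the estimated counts, held 0.111 to 0.243% of TPM: cumulus small 1 (0.156%), small 2 (0.111%), medium 2 (0.223%) and large 3 (0.243%), and granulosa medium 4 (0.111%) and large 1 (0.177%). The other 17 held 0.0122 to 0.0393%. The 6 were set apart after their values had been seen, and they belong to no single follicle size, cell type or library number. Without them the share was 0.0255% in cumulus and 0.0228% in granulosa cells.

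**Figure D2:**
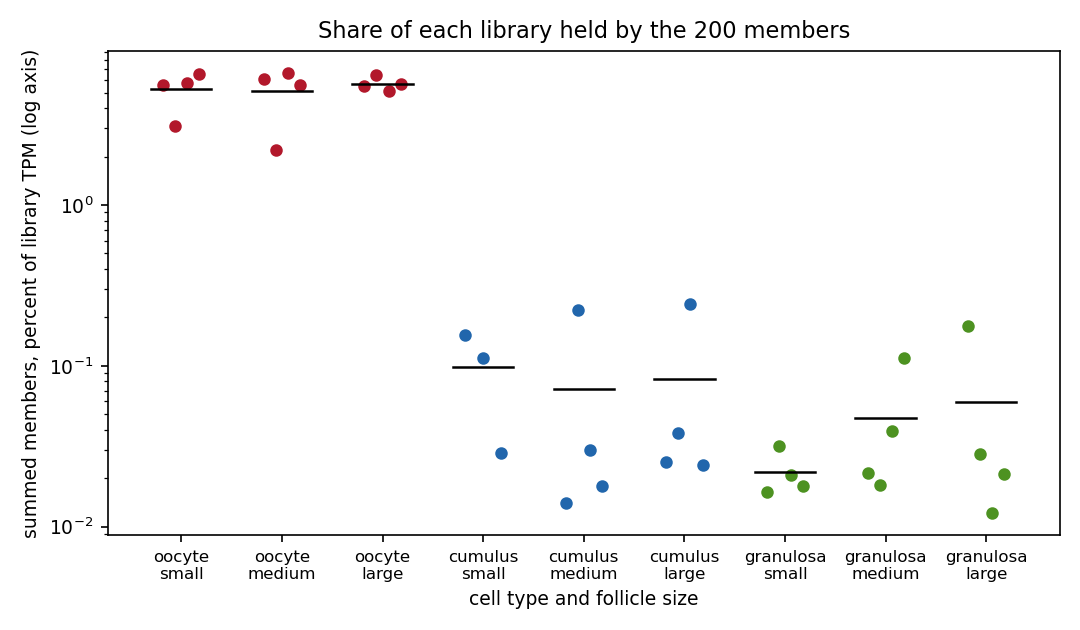
Summed TPM of the 200 members as a percentage of all TPM on a log axis, with a dot for each library and a bar at the mean of each group of cell type and follicle size. Oocyte libraries lie between 2.20 and 6.66%, 6 somatic libraries between 0.111 and 0.243%, and the other 17 between 0.0122 and 0.0393%.

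The division was then described member by member, with the same members that had set the 6 libraries apart. Each member's TPM in a somatic library was divided by its mean TPM in oocytes. The median of this ratio over the members was highest in cumulus large 3 (4.02%) and medium 2 (3.77%), then in granulosa large 1 (2.84%), cumulus small 1 (2.69%), cumulus small 2 (1.96%) and granulosa medium 4 (1.81%). A group of 4 granulosa libraries followed at a distance, medium 3 with 0.354%, small 2 with 0.327%, large 2 with 0.257% and small 3 with 0.199%. In the remaining 13 libraries the median was at most 0.0923%. Members with no counts numbered 3 to 10 in the 6 libraries and 17 to 97 in the 17 others.

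Within the 6 libraries the members' ratios to their oocyte level lay in a limited range. The rule bounds this range from above, since each member needed a large gap. The mean ratio over the 6 had a median of 2.91% and quartiles of 2.33 and 3.63%, and 90% of the members lay between 1.12 and 4.93%. Over the 17 others the median was 0.135% with quartiles of 0.0658 and 0.413%, a wider relative spread among values at or near 0. The ratio over the 6 exceeded that over the 17 for 196 of the 200 members. Since the 6 were set apart by the summed members, higher ratios there follow largely from that choice. It exceeded 1% for 191 members over the 6 and for 28 over the 17. Whole-count members and the others had like medians over the 6, 2.96% and 2.90%.

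**Figure D3:**
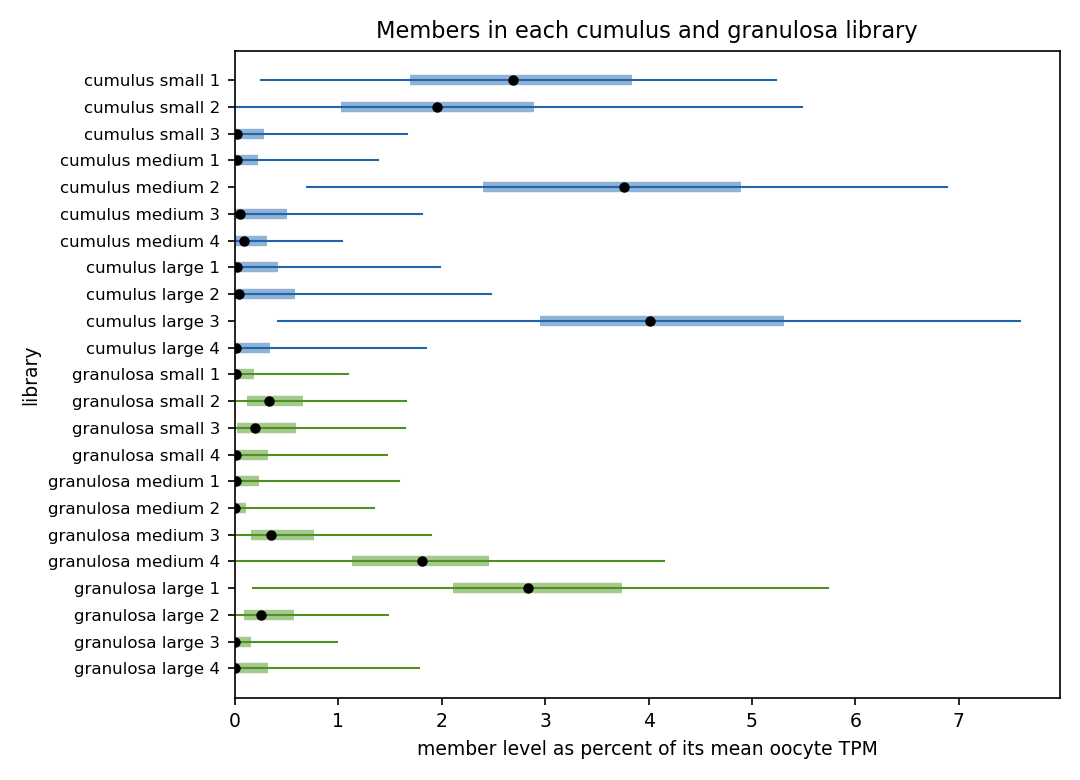
For each somatic library, the ratio of a member's TPM to its mean TPM in oocytes, in percent, with a dot at the median over the 200 members, a thick line from the 25th to the 75th percentile and a thin line from the 5th to the 95th. The 6 libraries with the highest member share have medians from 1.81 to 4.02%, and the next has 0.354%.

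The order of the members was also described, with the same members that had set the 6 libraries apart. Across the 200 members, the Spearman correlation of a library's TPM with the mean oocyte TPM was 0.718 to 0.881 in the 6 somatic libraries and 0.314 to 0.713 in the 17 others. Between pairs of libraries it was 0.680 to 0.900 among the 6 (median of 15 pairs 0.812), 0.461 to 0.850 among the 17 (median of 136 pairs 0.621) and had a median of 0.902 among 66 oocyte pairs. Ties at 0 are more frequent in the 17, and members share transcript lengths and read sharing in all libraries, so these correlations are given as a description only. The transcripts typical of somatic cells did not separate the 6 libraries from the others. A list made by the mirrored rule, the 200 transcripts farthest above oocytes in both somatic cell types, held 1.03 to 1.35% of TPM in 5 of the 6 libraries and 2.88% in granulosa medium 4, within the range of 0.936 to 3.22% over the somatic libraries. The medians were 1.28% over the 6 and 1.49% over the 17. Among cumulus libraries the high ones held 1.03 to 1.35% and the others 0.966 to 2.18%. Such overlapping shares cannot tell where the member values came from. Whether oocyte RNA or expression in the somatic cells gave the member values in these 6 libraries was not tested.

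The comparison of the somatic cell types depended on these 6 libraries. They were set apart by their high member share and most are cumulus libraries. Changes on leaving them out therefore follow largely from that choice. The cumulus mean of log2(TPM + 1) was above the granulosa mean for 186 of the 200 members over all 23 libraries, and for 70 members over the 17. By follicle size, the median over members of the mean TPM was 2.07, 1.51 and 1.66 TPM in cumulus cells of small, medium and large follicles and 0.247, 0.852 and 1.08 TPM in granulosa cells. The group with the lowest value, granulosa small, held none of the 6 libraries. The fold between mean oocyte and mean somatic TPM had a median of 111 over the members with a somatic value above 0, which are all but member 77, and of 737 over the 17 libraries, for the 198 members above 0 there.

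Some members were well above 0 in the other 17 libraries too. Member 125, the most abundant in oocytes, was also the highest in somatic cells, with 28.1 to 299 TPM in cumulus cells (median 106) and 15.7 to 232 TPM in granulosa cells (median 48.5). Its mean in oocytes was 47.5-fold above its somatic mean, and 78.3-fold without the 6 libraries, so it was present in every somatic library. Its mean ratio to the oocyte level was 4.45% over the 6 libraries, within the range of most members, and 1.28% over the 17, where the median member had 0.135%. Member 136 (2679 bases) came next, with 8.55 to 88.6 TPM in cumulus cells and 6.19 to 49.0 TPM in granulosa cells, against 378 to 1808 TPM in oocytes, and with mean ratios of 5.52% over the 6 and 1.31% over the 17. Member 22 had a median of 13.5 TPM in cumulus and of 6.77 TPM in granulosa cells, and unlike members 1 to 5 it was above 0 in all somatic libraries. Its ratio was 2.93% over the 6, close to the median member, and 0.430% over the 17. In all, 47 members were above 0 in all 23 somatic libraries and 184 in all 6 of the high ones.

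At the other end, 4 members did not share the higher ratio in the 6 libraries, and they are named here because of their values. Member 77 (1524 bases) was at 0 in all 23 somatic libraries, where 3 counts over all of them would be 0.00445 CPM, while it had 1051 to 2543 counts in each oocyte library. Member 123 (2233 bases) had mean ratios of 0.00265% over the 6 and 0.141% over the 17, the opposite order to most members. Over the 17 its mean was 0.0708 TPM and its highest value 1.19 TPM, so the mean rested almost wholly on 1 library. Member 110 (3585 bases) had 0.912% over the 6 and 1.37% over the 17. Member 126 (2326 bases) had 0.799% and 2.05%. Its mean over the 6 was 0.517 TPM with a highest value of 3.10 TPM, and over the 17 it was 1.33 TPM with a highest of 12.4 TPM. Single libraries thus weighed heavily in both means. None of the 4 had whole counts, and the part of divided reads in their low values was not tested.

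The spread of the members between oocyte libraries was compared with that of other transcripts of their level, with no test. The SD of log2(TPM + 1) over the 12 oocyte libraries had a median of 0.59 among members (quartiles 0.50 and 0.69) and of 0.51 (quartiles 0.43 and 0.61) among 1494 other transcripts whose oocyte mean lay within the members' range. The largest shifts of the members in a common direction were in oocyte medium 2 and small 2. In medium 2 the median member deviated from its own mean by -1.20 on the log2 scale, against -0.75 for all 19038 transcripts. All 200 members were below their mean there and 160 had their lowest value of the 12, while 90.9% of the 19038 were below their mean. In small 2 the median member deviated by -0.63, against -0.25 for all, and 196 members were below their mean, against 68.8%. Unlike the 1494, the 19038 were not matched to the members' level. The log2(TPM + 1) scale narrows shifts at low levels, and the part of level in these differences was not tested.

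The libraries with these low levels were also those in which a few transcripts took the largest share of TPM. The 20 most abundant transcripts of a library held 79.1% of TPM in oocyte medium 2 and 70.2% in small 2, against 49.3 to 60.7% in the other 10. At most 2 members were among those 20 in any library. Of the TPM left outside them, members held 10.5% in medium 2 and 10.4% in small 2, against 10.9 to 13.4% in the other 10. These were still the lowest 2 of the 12, at a smaller distance than in the share of all TPM. Leaving out transcripts that hold most in these libraries raises the members' share there by arithmetic. What lowered the members in medium 2 and small 2 was not tested. Transcripts of the mirrored somatic list held 0.193% of TPM in medium 2 and 0.252% in small 2, within the range of 0.0512 to 0.270% over the oocyte libraries. Between pairs of members, the Pearson correlation over the 12 oocyte libraries had a median of 0.663. Without small 2 and medium 2 it had a median of 0.137, with quartiles of -0.28 and 0.50. Over the other 10 libraries, pairs of members thus varied both in the same and in opposite directions.

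**Figure D4:**
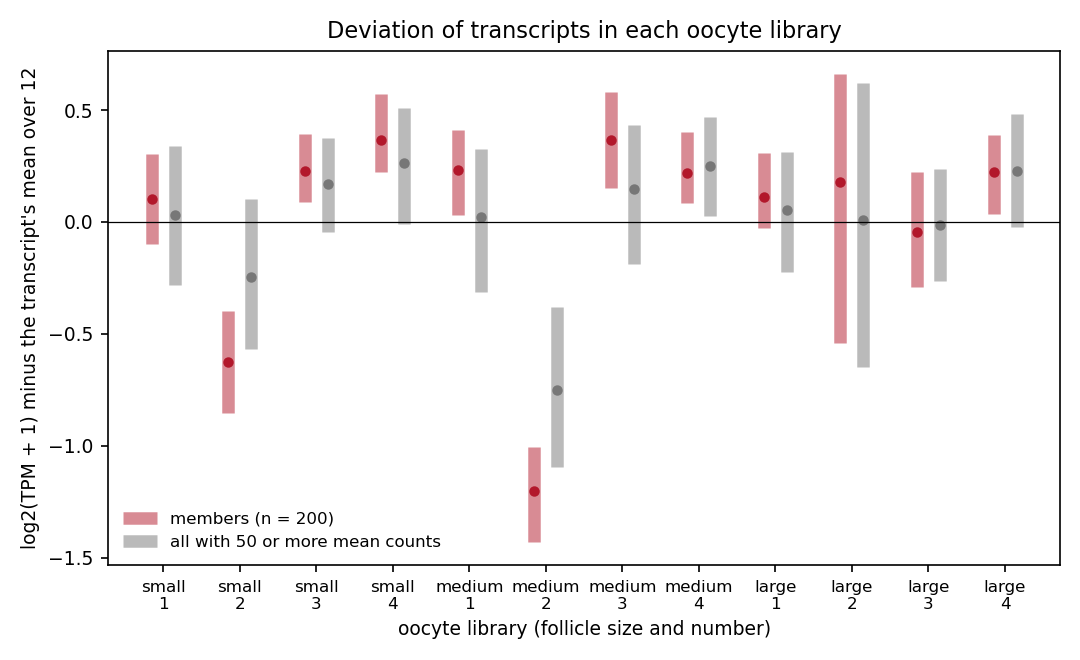
For each oocyte library, the median and quartiles of the deviation of log2(TPM + 1) from a transcript's mean over the 12 libraries, for the 200 members and for all 19038 transcripts with at least 50 mean counts. Members lie at -1.20 in medium 2 and -0.63 in small 2, and the spread is widest in large 2.

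Oocyte large 2 differed in another way, mainly by the order of its members. Their sum was 6.41% of TPM, within the range of the other libraries, but 8.12% of estimated counts, the highest of the 12. Outside the 20 most abundant transcripts it was 10.9% of TPM, the lowest after small 2 and medium 2. The SD of the members' deviations was 0.97 there and 0.28 to 0.39 in the other 11 libraries. All 19038 transcripts were also more dispersed there, with an SD of 1.04 against 0.45 to 0.61. In large 2, 26 members were more than 1 above their mean on the log2 scale and 31 more than 1 below it, and 60 members had their highest value of the 12 libraries there. In each of the 9 oocyte libraries other than large 2, small 2 and medium 2, at most 7 members were that far from their mean in either direction.

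The most variable members had their extreme value in this library. Member 110 had the highest SD (1.27 on the log2 scale), with 1342 TPM in large 2 and 43.6 to 221 TPM in the other 11 libraries. Member 134 (1724 bases, SD 1.15) went the other way, with 5.51 TPM in large 2 and 38.8 to 111 TPM in the others. Member 175 (1649 bases, SD 1.15) had 3.49 TPM there and 28.9 to 80.0 TPM in the others. The steadiest members were 135 (1654 bases, 38.2 to 94.6 TPM, SD 0.34), 162 (1681 bases, 45.6 to 92.4 TPM, SD 0.34) and 6 (1841 bases, 445 to 1032 TPM, SD 0.35).

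A further structure followed the number in the library labels. After the median of each library was removed, the members' deviations from their size group means were correlated between libraries of different follicle sizes, across the 200 members. The 12 pairs of libraries with the same number had correlations of 0.181 to 0.667, with a median of 0.536. The 36 pairs with different numbers had -0.382 to 0.106, with a median of -0.166, and 4 of the 36 were above 0. Each of the 12 libraries was most like a library of its own number. The oocyte libraries that stood apart above all carry the number 2. Their correlations were 0.584 for small 2 with medium 2, 0.330 for small 2 with large 2 and 0.181 for medium 2 with large 2. The pattern was not limited to the members: over the 1494 other transcripts of their level the medians were 0.533 and -0.219. The labels do not say whether the number stands for an animal, a day or nothing. Since deviations within a size group sum to about 0, positive correlations with the own number bring negative ones with the others.

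**Figure D5:**
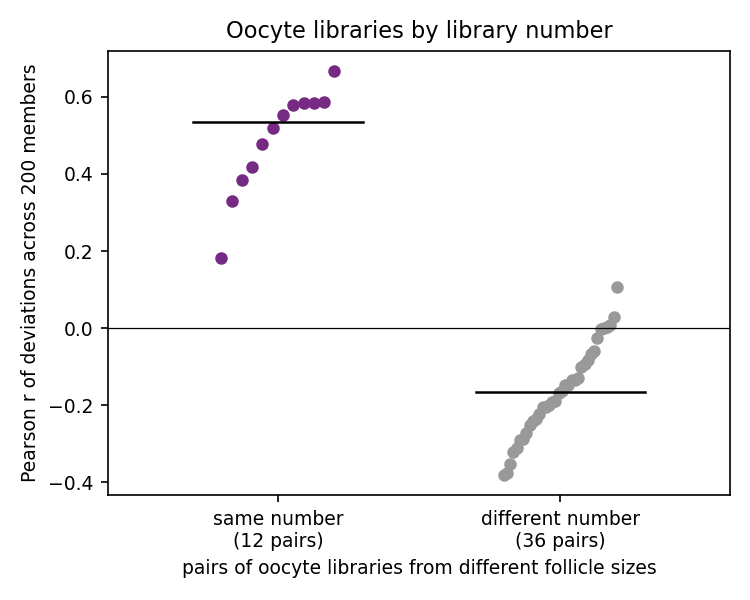
Correlation across the 200 members of the deviations of 2 oocyte libraries from their follicle size means, for 12 pairs of libraries with the same number and 36 pairs with different numbers; each dot is a pair and the bar is the median. The same-number pairs lie between 0.181 and 0.667, and the pairs of different numbers between -0.382 and 0.106.

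The study's own contrast is follicle size, which the choice of members did not use. It was tested in each cell type with edgeR's quasi-likelihood test over all transcripts, with Benjamini-Hochberg adjustment and a threshold of 0.05. In oocytes all 200 members were among the 28769 transcripts tested. None passed for medium against small, large against medium or large against small follicles, and the lowest adjusted p of a member was 1 in each. The share of all tested transcripts that passed was 0% in each of the 3 comparisons. At an unadjusted p under 0.05 there were 0, 1 and 1 members, against 1.26%, 2.12% and 1.9% of all transcripts tested. DESeq2 also called 0 members, against 0.129%, 0.136% and 0.149% of all transcripts.

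The size differences of the members in oocytes were small. The median log2 change was 0.06 from small to medium, -0.02 from medium to large and 0.03 from small to large, against 0.01, -0.02 and -0.02 over all transcripts tested. The fitted change was positive for 140, 94 and 107 of the 200 members. The median standard error of a member was 0.27 on the log2 scale, which sets the size of change that could be detected for a single member. The median also moved with 1 library: from small to medium it was 0.15 without oocyte medium 2 and -0.02 without small 2. With both left out it was 0.05 from small to medium, -0.12 from medium to large and -0.09 from small to large, with 136, 70 and 76 members positive, so the small to large median changed sign. No member passed in that fit either.

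The members nearest to a size difference are given by their libraries, 1 to 4 in order, and none passed (edgeR adjusted p = 1 for each). Member 81 (ENSMMUT00000012962.4, 1134 bases) had 81.0, 30.9, 57.9 and 80.1 TPM in oocytes of large follicles and 91.7, 45.0, 103 and 101 TPM in medium ones, a fitted log2 difference of -0.63 with a standard error of 0.26. Member 90 (ENSMMUT00000021732.4, 2085 bases) had 119, 179, 98.7 and 127 TPM in large and 91.7, 47.5, 102 and 117 TPM in small follicles, a difference of 0.52 with a standard error of 0.24. In both the groups overlapped, and these were the only members at an unadjusted p under 0.05. By library number, member 81 was lower in the large follicle in 4 of 4 pairs and member 90 higher in 3 of 4. With the number as a block in the fit, the log2 differences were -0.69 and 0.56 and the edgeR adjusted p was 1 for both. The block left 0, 6 and 1 members at an unadjusted p under 0.05 in the 3 comparisons, against 1.49%, 2.47% and 2.03% of all transcripts tested, and 0 members passed after adjustment.

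The other members with the smallest p of their direction overlapped as well. Member 126 (2326 bases) had 77.0, 28.4, 85.9 and 78.1 TPM in medium and 54.2, 43.6, 64.8 and 70.1 TPM in small follicles, a log2 difference of 0.32 with a standard error of 0.15. Member 176 (3573 bases) had 46.4, 18.9, 30.7 and 72.1 TPM in medium and 86.1, 54.8, 60.2 and 48.0 TPM in small follicles, a difference of -0.51 with a standard error of 0.27. The library medium 2 was the lowest of the 8 for both, as it was for most members. Member 190 (2641 bases) had 48.3, 67.0, 52.4 and 74.9 TPM in large and 65.4, 48.9, 80.5 and 88.2 TPM in small follicles, a difference of -0.27 with a standard error of 0.16. Member 110 had 71.0, 1342, 146 and 168 TPM in large and 170, 43.6, 221 and 99.8 TPM in medium follicles. Its fitted difference of 1.53, with a standard error of 0.79, rested on large 2 and was -0.18 without that library.

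In the somatic cells the members were too low for a test of all of them. Of the 200, 187 passed the filter on low counts in cumulus cells and 143 in granulosa cells, largely through the libraries where they were high, so counts over them describe those libraries. None passed the threshold between follicle sizes in either cell type. Of all transcripts tested, 0% passed in cumulus cells (31869 tested), and 0.00348%, 0% and 0.00348% in granulosa cells (28721 tested) for medium against small, large against medium and large against small. At an unadjusted p under 0.05 there were 3, 2 and 0 members in cumulus cells, against 3.69%, 3.66% and 3.72% of all transcripts, and 4, 0 and 4 in granulosa cells, against 2.28%, 1.09% and 2.17%. With the library number as a block, granulosa cells had 4, 0 and 1 members, against 4.67%, 1.65% and 3.83% of all transcripts. DESeq2 called 0 members in these 6 comparisons, against 0.637%, 0.32% and 0.602% of all transcripts in cumulus cells and 0.0905%, 0.122% and 0.139% in granulosa cells. Single libraries moved the unadjusted counts: without cumulus large 3, 66 of the 170 members tested were at an unadjusted p under 0.05 for large against small (3.80% of all transcripts tested), and without cumulus medium 2, 22 of 173 for medium against small (4.18% of all). In both fits the library left out was 1 of the 6 with high member levels, and 0 members passed after adjustment. It was the only high library of its size group, while cumulus small 1 and small 2, also high, stayed in the small group. These counts thus follow from which libraries were left and are no result about follicle size.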

How the data were processed

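Per the labels' protocols, a PicoPure kit gave the RNA and the Ovation RNA-Seq System v2 amplified it. The submitters' processing notes name bcl2fastq 2.19.1 and kallisto 0.44.0. The build and the annotation were not given in the sources used here. The authors deposited, for each of 35 libraries, an estimated count and a TPM value for 49537 transcript IDs, per the file headers. The deposited TPM values served the choice of members, levels, shares and ratios, and were not tested. The deposited estimated counts were rounded for the tests and gave the depth, 20780476 to 52350387 per library.

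Of the IDs, 0 matched the tables of gene names and RefSeq genes, so the lists of oocyte genes and cell markers drawn up for this work could not be applied. The members and lists were chosen with earlier results of these data known.

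Size comparisons were fitted within each cell type with edgeR 4.0.16 in R 4.3.3 (TMM factors, filterByExpr with a minimum count of 10, robust quasi-likelihood test, Benjamini-Hochberg adjustment over all transcripts tested). The scripts were tested on simulated data. Alternatives were DESeq2 1.42.0, limma 3.58.1 with sample weights, other size factors, no filter, a replicate block and leaving out each library. Same-numbered granulosa libraries deviated together (12 pairs, correlations of 0.120 to 0.430), so the number pairs them; in oocytes 9 of 12 pairs and in cumulus cells 1 of 10 were over 0.1. The named members were ranks 1 to 5, the 5 most abundant, the smallest p in each direction of each oocyte comparison, the 3 most and 3 least variable, the 3 highest in somatic cells, the 2 longest and shortest and those at the rule's edge. At most 2 IDs are printed per direction.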

Additional observations from a re-analysis of the deposited data

Results flagged for a closer look

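Values of members and of their summed share in groups of 4 libraries were checked for a library that stood far from the other 3 (Dixon's 95% limit, 26 groups checked, of which chance sets apart about 1 in 20). Of these, 5 stood apart. The member shares had already been used to set libraries apart, and the members were named for their values in these libraries. The rate of 1 in 20 therefore does not hold for them. The member share of TPM was 0.223% in cumulus medium 2, 0.243% in cumulus large 3 and 0.177% in granulosa large 1, each the highest of its group. Member 126 had 28.4 TPM in oocyte medium 2, the lowest of its group. Member 110 had 1342 TPM in oocyte large 2, the highest of its group.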

How the results depend on the processing

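The number of members called between follicle sizes was 0 in all 159 alternatives run over the 9 comparisons, those that left out 1 library each included (0 to 0). With the replicate block, which the numbers allow in granulosa cells, it was 0 in each of the 9 comparisons, and the block changed no call. In oocytes 9 of the 12 same-number pairs correlated above 0.1 over all transcripts, short of the every pair asked for, although all 12 did across the members, so the block was kept as an alternative there. The choice of members depended on the pseudocount: with 0.1 in place of 1 in the logarithm, 120 of the 200 were chosen again. Leaving out 1 library kept at least 189, medians in place of means 176, and count minimums of 10 or 200 kept 200. Of the choices added after seeing the data, leaving out the 6 somatic libraries of high member share kept 180, leaving out oocyte small 2 and medium 2 kept 194, leaving out oocyte large 2 kept 190, and CPM in place of TPM kept 140. The log2 difference of member 110 between large and medium follicles ran from -0.18 without oocyte large 2, where its level is highest, to 1.88 without large 1. Depth limits the somatic values, where 17 to 97 members had no counts in each of 17 libraries.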
